A study of Homo sapiens with 12 samples.

Results

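Aminoacyl-tRNA synthetases are the enzymes that join each amino acid to its tRNA, the step that gives the genetic code its meaning. Human cells use separate sets for the cytosol and for the mitochondrion, and both sets are encoded in the nucleus. By convention, the symbols of the cytosolic enzymes end in 1 and those of the mitochondrial enzymes end in 2, whereas FARSA and FARSB encode the α and β chains of the cytosolic phenylalanine enzyme. KARS1 and GARS1 supply the lysine and glycine enzymes of both compartments and were counted here as cytosolic. The genes of many cytosolic synthetases are known targets of ATF4, a transcription factor of the response to amino acid shortage, which binds short promoter elements of the CCAAT/enhancer-binding protein and ATF type.

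The 35 synthetase genes described here, 19 cytosolic and 16 mitochondrial, were chosen by their symbols, with earlier results of these data known. All 35 were found by their Ensembl IDs among the 60675 gene IDs of the HT29 table. HT29, an established line, was derived from a human adenocarcinoma of the colon. The cells were kept for 24 h with a water extract of the herb Aconitum carmichaeli Debeaux (ACD) or with vehicle (PBS with 2% DMSO), with 3 RNA libraries per group. The low, medium and high doses were 20, 100 and 500 µg/mL. Labels and methods do not say whether the libraries of a group came from separate cultures, so the p-values measure the spread between these libraries, which may be technical. A note on the treatment in the labels speaks of a different herb (Poria cocos), and samples were grouped by their titles, where ACD is given.

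The libraries held between 15941255 and 33866644 expected counts. All 35 synthetase genes passed the filter on low counts, and their counts in single libraries ranged from 159 (PARS2) to 14899 (IARS1), with at least 979 for the cytosolic genes. Of 8 epithelial markers, KRT8, KRT18, EPCAM, KRT20 and VIL1 were at 148 CPM or more in every library (CPM are counts scaled to a common library size with the TMM factors of edgeR), CDX2 and CDH17 were at 4.61 to 7.43 CPM and CDX1 was at 0.923 to 1.54 CPM. None of the 8 passed at the high dose against vehicle with all libraries. Without high-dose replicate 2, 3 did (VIL1 at −0.20, CDX2 and CDH17 at 0.42 on the log2 scale), where 18.7% of all genes tested passed in either direction. In edgeR's fit of all libraries, VIL1 was lower at the high than at the low dose (log2 difference −0.26, adjusted p = 0.0479). Of the markers of other cells, the leukocyte marker PTPRC had at most 3 counts and the astrocyte marker GFAP at most 10 counts in a library. The fibroblast marker COL1A1 and the endothelial marker PECAM1 lay between 0.354 and 2.57 CPM. High-dose replicate 2 had the lowest total and lay at −70.7 on the first principal component, where the other 11 libraries lay between −14.7 and 14.5. Over genes with a mean above 5 CPM, transcript length and GC content together gave an R² of 0.471 for its deviations from the mean of all libraries, compared with at most 0.265 in the other libraries. In 9 of the 13 synthetase genes that rose at the high dose it was the highest of the 3 high-dose libraries, and its part in the results was not tested beyond the values given without it. In these bulk libraries, a change in the RNA of each cell and a change in the make-up of the cells cannot be told apart.

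At the high dose, 13 of the 19 cytosolic synthetase mRNAs rose against vehicle and none of the 16 mitochondrial ones passed the test (edgeR's quasi-likelihood test, adjusted p under 0.05 over 15374 genes). No synthetase mRNA fell with an adjusted p under 0.05. Over all genes tested, 2.82% passed in the upward direction and 2.95% in the downward direction, against 68.4% of the cytosolic genes in the upward direction. With the additional threshold of a fold change over 1.5 (differentially expressed genes, DEGs), SARS1, GARS1, WARS1, AARS1 and CARS1 remained, where 1.26% of all genes tested were upregulated DEGs. The median log2 fold change was 0.48 for the cytosolic genes, 0.10 for the mitochondrial genes and 0.01 for all genes tested. Without high-dose replicate 2, these medians were 0.37, 0.05 and −0.01. At an unadjusted p under 0.05, 15 cytosolic and 2 mitochondrial genes were counted, against 20.1% of all genes tested. DESeq2's Wald test on all libraries called 14 cytosolic genes, with KARS1 added, and 0 mitochondrial genes, where 4% of the genes it tested were higher. When edgeR was fitted to the vehicle and high-dose libraries alone, 6 cytosolic genes passed (AARS1, CARS1, GARS1, MARS1, WARS1 and YARS1), where 0.725% of all genes passed in the upward direction. High-dose and vehicle libraries did not overlap, with the high dose above, in 15 cytosolic genes and 1 mitochondrial gene (MARS2), compared with 10.5% of all genes tested.

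**Figure D1:**
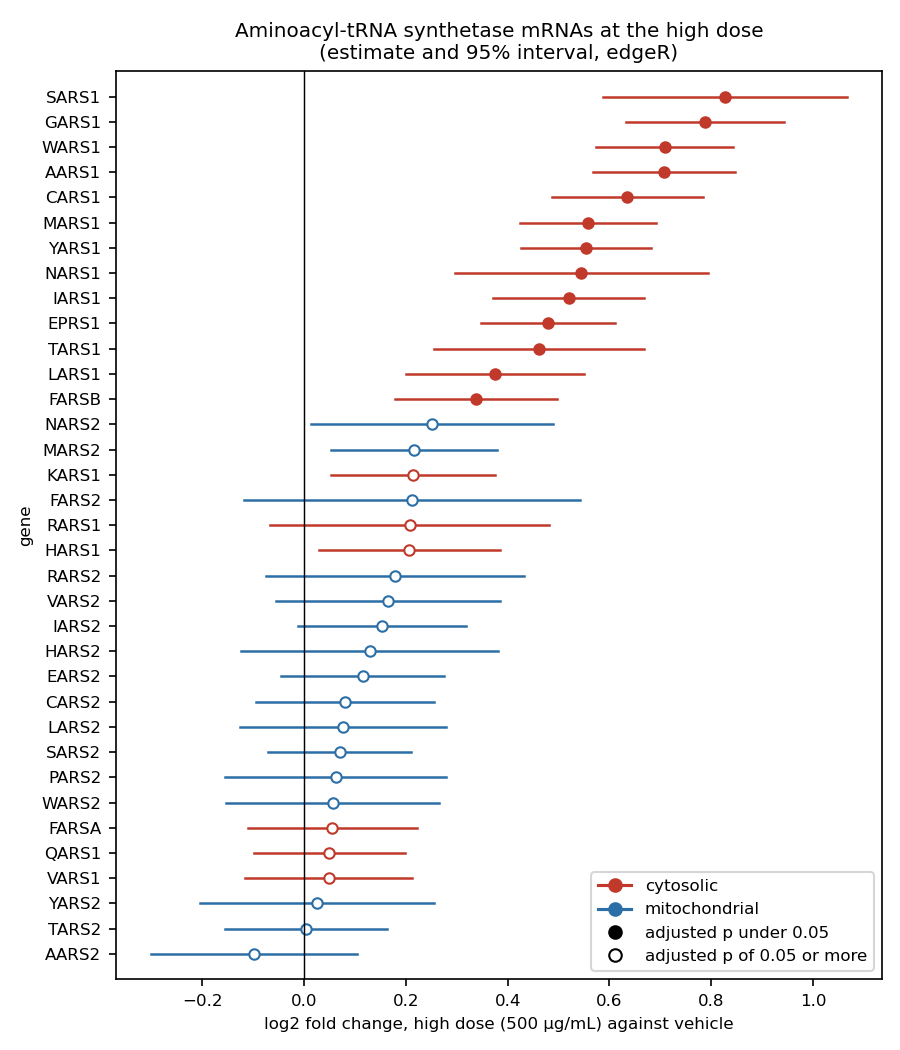
Log2 fold change at the high dose (500 µg/mL) against vehicle for each of the 35 synthetase genes (x axis) with its 95% interval, 3 libraries per group, from edgeR's fit of all 12 libraries. Cytosolic genes are red, mitochondrial genes are blue, and filled points passed with an adjusted p under 0.05. The 13 filled points are all cytosolic and lie between 0.34 (FARSB) and 0.83 (SARS1), and the 16 mitochondrial points lie between −0.10 (AARS2) and 0.25 (NARS2).

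The summed level of the 19 cytosolic mRNAs was between 2919 and 3060 CPM in the vehicle libraries and between 3941 and 4331 CPM at the high dose, where its mean was 137% of the vehicle mean. The summed level of the 16 mitochondrial mRNAs went from 553 to 584 CPM with vehicle to between 594 and 642 CPM at the high dose, with a mean of 109% of the vehicle mean. In both sums, the libraries of the 2 groups did not overlap, and in both the highest library was high-dose replicate 2.

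SARS1, the cytosolic serine enzyme (chr1:109213918-109238182, plus strand, GENCODE release 44 on GRCh38), was at 101, 99.0 and 96.8 CPM in vehicle replicates 1, 2 and 3 and at 153, 217 and 158 CPM at the high dose. At the low dose it was at 99.5, 101 and 105 CPM and at the medium dose at 104, 105 and 104 CPM. All 3 high-dose libraries were above every other library, and replicate 2 was far above the other high-dose libraries. The fitted rise at the high dose was 1.77-fold (log2 fold change 0.83 ± 0.11 SE, adjusted p = 0.000779), the highest estimate of the 35 genes, and 0.65 on the log2 scale without replicate 2. GARS1, the glycine enzyme of cytosol and mitochondrion (chr7:30580533-30634033, plus strand), went from 172, 172 and 176 CPM with vehicle to 278, 331 and 289 CPM at the high dose. Its low-dose libraries had 186, 185 and 192 CPM and its medium-dose libraries 193, 195 and 195 CPM. Each dose group lay above vehicle without overlap, and the rise at the high dose was 1.73-fold (log2 fold change 0.79 ± 0.07 SE, adjusted p = 4.44e-05).

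WARS1, which charges the tryptophan tRNA (chr14:100333790-100376805, minus strand), had 87.1, 88.2 and 87.7 CPM with vehicle and 145, 139 and 145 CPM at the high dose. Between them lay 92.0, 94.5 and 100.0 CPM at the low dose and 106, 98.1 and 107 CPM at the medium dose, so that no library of a dose overlapped with vehicle. The high-dose level was 1.63-fold that of vehicle (log2 fold change 0.71 ± 0.06 SE, adjusted p = 3.59e-05), the smallest adjusted p of the 35 genes. AARS1, the alanine enzyme (chr16:70251983-70289707, minus strand), was at 126, 128 and 133 CPM with vehicle, 130.1, 137 and 144 CPM at the low dose, 152, 142 and 143 CPM at the medium dose and 212, 216 and 204 CPM at the high dose. Only its low-dose group overlapped with vehicle, and the high-dose rise was 1.63-fold (log2 fold change 0.71 ± 0.06 SE, adjusted p = 4.36e-05). CARS1, the cysteine enzyme (chr11:3000922-3057613, minus strand), had 66.4, 65.1 and 69.6 CPM with vehicle, 68.8, 74.9 and 73.2 CPM at the low dose, 80.02, 70.9 and 78.0 CPM at the medium dose and 101, 106 and 105 CPM at the high dose. Its rise at the high dose was 1.55-fold (log2 fold change 0.64 ± 0.07 SE, adjusted p = 0.000161). In WARS1, AARS1 and CARS1, the 3 high-dose libraries lay close together, with SDs of 3.27, 6.0 and 2.46 CPM.

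Another 4 genes outside the multi-synthetase complex rose at the high dose by less than 1.5-fold. YARS1, the tyrosine enzyme (chr1:32775237-32818031, minus strand), was at 182, 192 and 189 CPM with vehicle, 193, 196 and 200.4 CPM at the low dose, 206, 209 and 212 CPM at the medium dose and 269, 279 and 277 CPM at the high dose, with a log2 fold change of 0.55 ± 0.06 SE at the high dose (adjusted p = 0.000143). Its libraries stood in the order of the doses without any overlap between vehicle, low, medium and high dose. NARS1, the asparagine enzyme (chr18:57600656-57622213, minus strand), was at 139, 149 and 148 CPM with vehicle, 147, 146 and 162 CPM at the low dose, 159, 155 and 157 CPM at the medium dose and 188, 263 and 187 CPM at the high dose (log2 fold change 0.54 ± 0.11 SE, adjusted p = 0.015). High-dose replicate 2 was the highest library, and without it the NARS1 estimate was 0.37 (adjusted p = 0.00029). TARS1, the threonine enzyme (chr5:33440696-33468091, plus strand), was at 251, 252 and 264 CPM with vehicle, 252, 273 and 272 CPM at the low dose, 282, 274 and 283 CPM at the medium dose and 321, 414 and 322 CPM at the high dose (log2 fold change 0.46 ± 0.10 SE, adjusted p = 0.0137). It had the same high library, and the TARS1 estimate without it was 0.33 (adjusted p = 0.000531). FARSB, the β chain of the phenylalanine enzyme (chr2:222566899-222656092, minus strand), was at 75.8, 72.8 and 79.5 CPM with vehicle, 77.9, 79.9 and 85.7 CPM at the low dose, 85.9, 83.9 and 86.8 CPM at the medium dose and 90.9, 105 and 92.5 CPM at the high dose (log2 fold change 0.34 ± 0.07 SE, adjusted p = 0.0177). The calls of NARS1, TARS1 and FARSB were lost when single vehicle libraries were left out. NARS1 had an adjusted p of 0.0654, 0.0556 and 0.0503 without vehicle replicate 1, 2 and 3. TARS1 had 0.0533 and 0.0647, and FARSB 0.0547 and 0.0902, without vehicle replicate 1 and 2.

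A set of 7 cytosolic genes, EPRS1, IARS1, LARS1, MARS1, QARS1, RARS1 and KARS1, encodes enzymes of the multi-synthetase complex, in which they are held together by scaffold proteins. Of these 7 genes, 4 rose at the high dose, compared with 9 of the 12 cytosolic genes outside the complex, and the median log2 fold changes were 0.37 and 0.55 (0.35 and 0.45 without high-dose replicate 2). None of the 7 was a DEG. EPRS1, a single protein with the glutamate and proline enzymes (chr1:219968600-220046530, minus strand), was at 247, 251 and 262 CPM with vehicle, 265, 273 and 279.6 CPM at the low dose, 285, 277 and 286 CPM at the medium dose and 352, 353 and 355 CPM at the high dose (log2 fold change 0.48 ± 0.06 SE, adjusted p = 0.000539). Each of its dose groups lay above vehicle. IARS1, the isoleucine enzyme (chr9:92210207-92293854, minus strand), was at 293, 317 and 336 CPM with vehicle, 334, 340.5 and 348 CPM at the low dose, 357, 352 and 359 CPM at the medium dose and 449, 448 and 458 CPM at the high dose (log2 fold change 0.52 ± 0.07 SE, adjusted p = 0.000675). MARS1, the methionine enzyme (chr12:57475445-57517569, plus strand), was at 157, 162 and 157 CPM with vehicle, 169.9, 181 and 184 CPM at the low dose, 190.3, 182 and 190.1 CPM at the medium dose and 238, 226 and 236 CPM at the high dose (log2 fold change 0.56 ± 0.06 SE, adjusted p = 0.000199). MARS1 had the highest cytosolic estimate at the low dose, and all its dose groups lay above vehicle. LARS1, the leucine enzyme (chr5:146110566-146182696, minus strand), was at 154, 183 and 189.8 CPM with vehicle, 182, 179 and 189 CPM at the low dose, 178, 191 and 186 CPM at the medium dose and 221, 237 and 225 CPM at the high dose (log2 fold change 0.37 ± 0.08 SE, adjusted p = 0.0168). Its low-dose and medium-dose libraries overlapped with vehicle, in which replicate 1 was lower than the others.

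**Figure D2:**
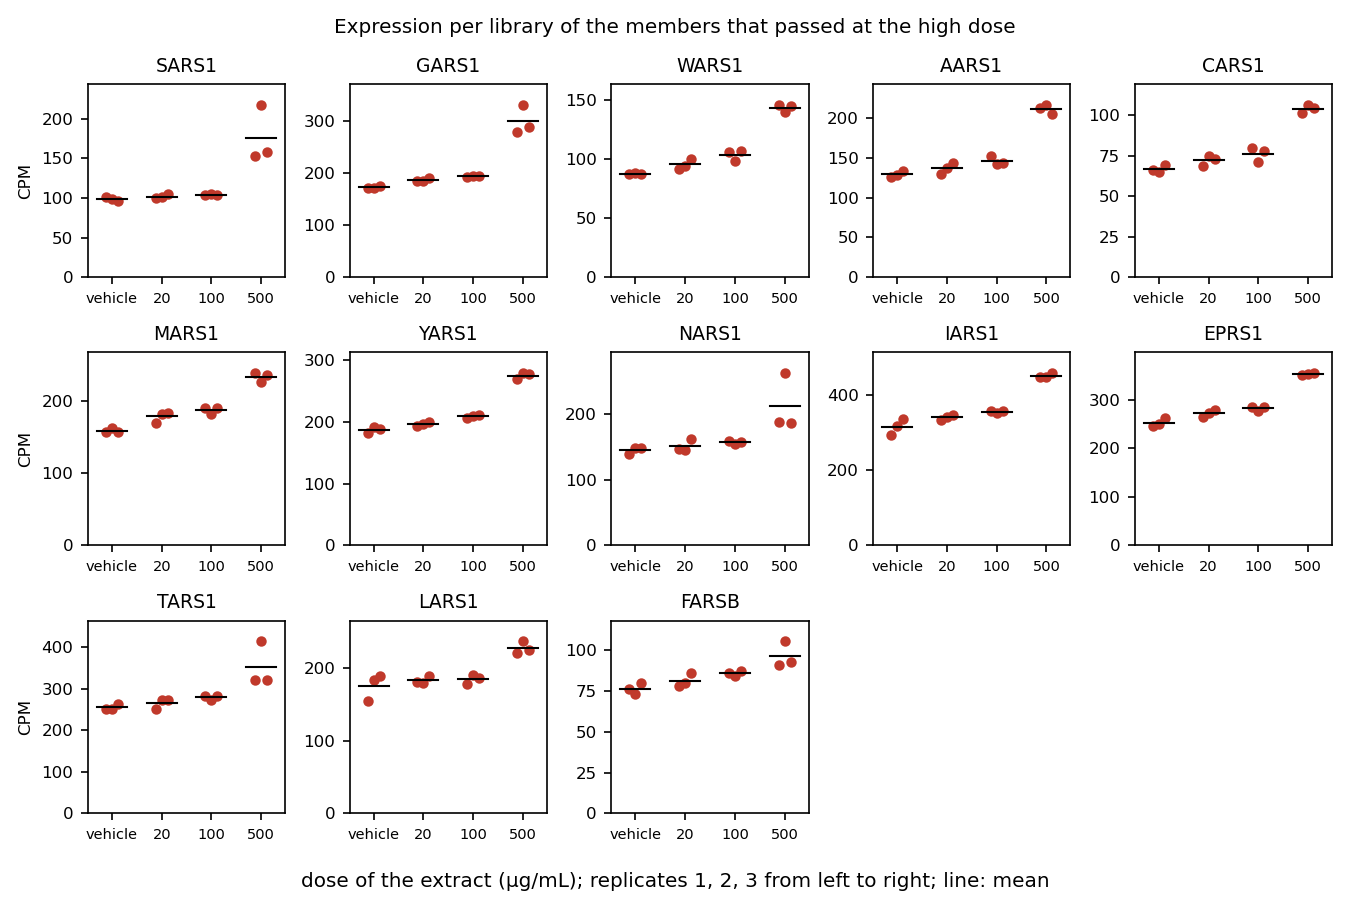
CPM (y axis, from 0) in each of the 12 libraries for the 13 cytosolic synthetase genes that passed at the high dose, by dose of the extract in µg/mL (x axis), with a line at the mean of the 3 libraries of a group. In every panel all points of the high dose are above those of vehicle, and in SARS1, NARS1 and TARS1 high-dose replicate 2 (217, 263 and 414 CPM) stands above the others.

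In all, 6 cytosolic genes did not pass at the high dose. In the complex, these were KARS1, the lysine enzyme (log2 fold change 0.21 ± 0.07 SE, adjusted p = 0.123), RARS1, the arginine enzyme (0.21 ± 0.13 SE, adjusted p = 0.399), and QARS1, the glutamine enzyme (0.05 ± 0.07 SE, adjusted p = 0.753). Outside it, they were HARS1, the histidine enzyme (0.21 ± 0.08 SE, adjusted p = 0.177), FARSA, the α chain of the phenylalanine enzyme (0.06 ± 0.08 SE, adjusted p = 0.752), and VARS1, the valine enzyme (0.05 ± 0.08 SE, adjusted p = 0.788). The high-dose libraries of KARS1 and HARS1 still lay above all vehicle libraries, at 234, 265 and 229.5 CPM against 209, 203 and 216 CPM for KARS1 and at 95.9, 109.6 and 87.5 CPM against 86.3, 85.3 and 81.9 CPM for HARS1. RARS1 was at 106, 163 and 113 CPM at the high dose against 112, 107 and 111 CPM with vehicle, so only replicate 2 was above the vehicle libraries by more than a few CPM, and its estimate without that replicate was −0.0036. The HARS1 and KARS1 estimates without it were 0.12 (adjusted p = 0.19) and 0.15 (adjusted p = 0.0813). The 95% intervals of QARS1, FARSA and VARS1 ended at 0.20, 0.22 and 0.21, below the estimate of each of the 13 genes that passed. The chains of the phenylalanine enzyme had log2 fold changes of 0.06 (FARSA, interval -0.11 to 0.22) and 0.34 (FARSB, interval 0.18 to 0.50), with intervals that overlap.

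The synthetases fall into 2 unrelated structural classes, and each class contains enzymes of both compartments. In the cytosol, 7 of 10 class I genes and 6 of 9 class II genes passed at the high dose, with median log2 fold changes of 0.50 and 0.46 (0.50 and 0.33 without high-dose replicate 2). In the mitochondrion, the medians were 0.12 for the 9 class I genes and 0.07 for the 7 class II genes (0.08 and 0.03 without that replicate), and no gene of either class passed in the fit of all libraries. EPRS1, which holds both the glutamate and the proline enzyme, was counted as class I only. The difference between the classes was not tested.

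For the mitochondrial genes, the estimates at the high dose lay between −0.10 (AARS2) and 0.25 (NARS2). Without replicate 2, AARS2 was at −0.02 and NARS2 at 0.10 (adjusted p = 0.333), and the estimates ran from −0.09 (YARS2) to 0.28 (VARS2). Their standard errors, from 0.06 to 0.15, were close to those of the cytosolic genes, from 0.06 to 0.13, although their counts were lower. The upper limit of the 95% interval was below a 1.5-fold rise for all 16 genes, with the highest limit at 0.54 on the log2 scale (FARS2, the phenylalanine enzyme, with 173 to 336 counts per library). The smallest adjusted p of the 16 was that of MARS2, the methionine enzyme, at 36.1, 37.8 and 39.5 CPM with vehicle and 44.3, 41.1 and 46.2 CPM at the high dose (log2 fold change 0.22 ± 0.08 SE, adjusted p = 0.127). NARS2, the asparagine enzyme, was at 28.1, 28.8 and 28.9 CPM with vehicle and 28.5, 41.4 and 32.7 CPM at the high dose, where replicate 2 was again the highest (adjusted p = 0.222). Without high-dose replicate 2, 9.83% of all genes tested passed in the upward direction in place of 2.82%, and 3 mitochondrial genes were among them. These were VARS2, the valine enzyme (0.28, adjusted p = 0.00849), MARS2 (0.26, adjusted p = 0.0148) and EARS2, the glutamate enzyme (0.18, adjusted p = 0.0398). All 13 cytosolic genes also passed without it.

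For 15 pairs of a cytosolic gene and the mitochondrial gene of the same amino acid, the log2 ratio of their CPM was compared between groups within each library, so that the scaling of the library cancels out. With FARSA and FARSB both paired with FARS2, these were 14 different mitochondrial genes. In vehicle libraries and per kilobase of transcript, the cytosolic mRNA was the more abundant one in 15 of 15 pairs, by 1.08-fold (CARS1 and CARS2) to 9.82-fold (TARS1 and TARS2) and with a median of 4.54-fold. At the high dose, the ratio shifted towards the cytosolic mRNA without overlap between libraries in 10 of 15 pairs, with a median shift of 0.34 on the log2 scale. The share of such shifts among ratios of other gene pairs was not computed at any dose. Of all single genes tested, 10.5% lay above vehicle without overlap at the high dose. The AARS1 to AARS2 ratio had log2 values of 2.59, 2.37 and 2.58 with vehicle and 3.28, 3.56 and 3.14 at the high dose, and its mean shift of 0.81 was the largest. The SARS1 to SARS2 ratio was at 1.298, 1.34 and 1.22 with vehicle and 1.80, 2.43 and 1.87 at the high dose, with a shift of 0.74. The WARS1 to WARS2 ratio was at 2.09, 2.23 and 1.88 with vehicle and 2.84, 2.59 and 2.71 at the high dose, with a shift of 0.65. The high-dose libraries of each of these 3 ratios were above all vehicle libraries. The 95% intervals of the 2 fold changes of a pair were apart in 8 pairs, those of alanine, cysteine, isoleucine, methionine, serine, threonine, tryptophan and tyrosine. The ratio overlapped with vehicle for histidine, arginine, valine and both phenylalanine pairs, with shifts between −0.15 (FARSA to FARS2) and 0.13 (FARSB to FARS2). Without high-dose replicate 2, the ratio lay above vehicle in 12 of 15 pairs, with HARS1 to HARS2 and FARSB to FARS2 added. Leaving out a high-dose library can keep or raise this count but cannot lower it. The median shift without that replicate was 0.31. The shifts were then 0.70 for alanine, 0.54 for serine, 0.71 for tryptophan and 0.17 for leucine (0.32 with all libraries).

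**Figure D3:**
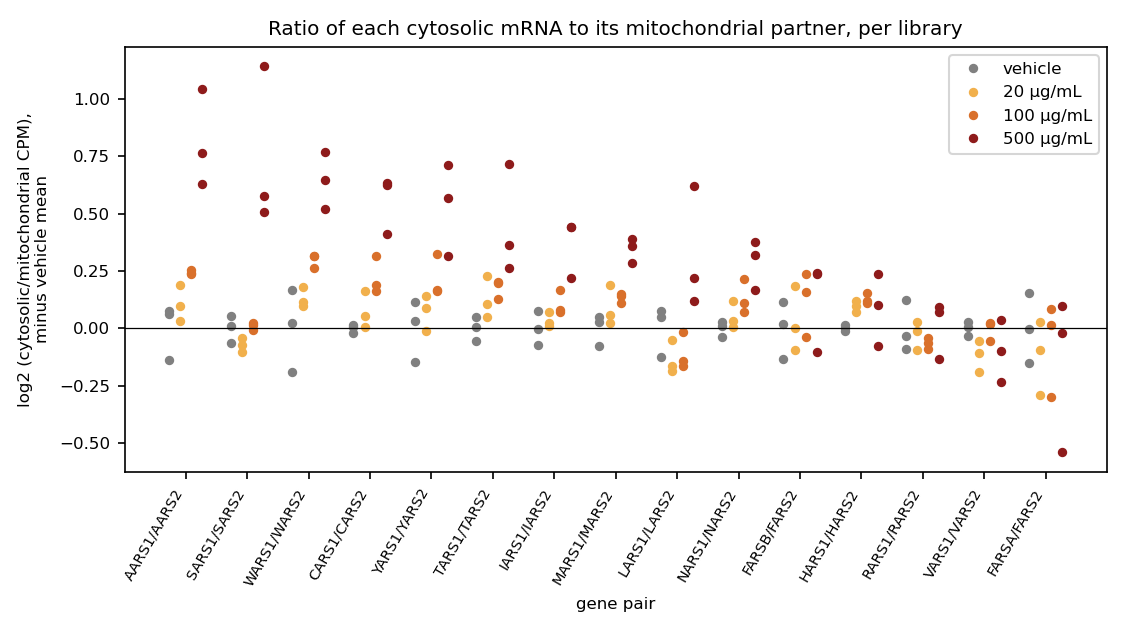
Log2 ratio of the CPM of each cytosolic synthetase gene to that of its mitochondrial partner in each of the 12 libraries, minus the mean of the vehicle libraries (y axis), for 15 pairs (x axis, by decreasing mean shift at the high dose). The points of 500 µg/mL lie above all vehicle points in the 10 pairs from AARS1/AARS2 to NARS1/NARS2, and overlap with them in the 5 pairs further right.

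At the medium dose, no synthetase gene passed the test, where 1.01% of all genes tested passed in either direction. The estimates were on the higher side for 18 of 19 cytosolic genes, with a median log2 fold change of 0.15, and for 9 of 16 mitochondrial genes, with a median of 0.03. Over all genes tested, the median was −0.0095. An unadjusted p under 0.05 was found for 9 cytosolic and 0 mitochondrial genes, against 11.7% of all genes tested. In 14 cytosolic and 4 mitochondrial genes, the medium-dose libraries lay above vehicle without overlap, compared with 14.5% of all genes. The highest estimates were those of WARS1 (0.24 ± 0.06 SE, adjusted p = 0.108) and MARS1 (0.24 ± 0.06 SE, adjusted p = 0.103). DESeq2's Wald test on all 12 libraries called 4 cytosolic genes at this dose (EPRS1, MARS1, WARS1 and YARS1), where 1.15% of the genes it tested were higher. Without high-dose replicate 2, edgeR called 3 (GARS1, MARS1 and WARS1), where 3.62% of all genes were higher. The cytosolic to mitochondrial ratio was above vehicle without overlap in 8 of 15 pairs, with a median shift of 0.13.

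At the low dose, no synthetase gene passed with edgeR or DESeq2, and 0.124% of all genes tested did. A single cytosolic gene, MARS1, had an unadjusted p under 0.05 (log2 fold change 0.17 ± 0.06 SE, adjusted p = 0.486), where 7.95% of all genes tested had one. The low-dose libraries lay above vehicle without overlap in 7 cytosolic and 4 mitochondrial genes, against 11.4% of all genes. The medians were 0.09 for the cytosolic and 0.05 for the mitochondrial genes, and without low-dose replicate 3 they were 0.05 and −0.00083. Over all genes tested, the median with all libraries was −0.0014. The ratio was above vehicle without overlap in 1 of 15 pairs (HARS1 to HARS2) and below it in another (VARS1 to VARS2). The highest mitochondrial estimate at the low dose was that of LARS2, the leucine enzyme, at 28.4, 28.5 and 27.4 CPM against 23.5, 24.7 and 25.1 CPM with vehicle (0.20 ± 0.09 SE, adjusted p = 0.629). All 3 dose groups were compared with the same vehicle libraries, so these values are not independent of each other.

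The doses were also compared directly. Against the medium dose, the high dose had 9 cytosolic genes with a higher level (AARS1, CARS1, EPRS1, GARS1, IARS1, MARS1, SARS1, WARS1 and YARS1) and no mitochondrial gene, where 0.572% of all genes tested were higher. The largest of these differences were those of SARS1 (0.75 ± 0.11 SE, adjusted p = 0.00534) and GARS1 (0.62 ± 0.07 SE, adjusted p = 0.00196) on the log2 scale. The calls of EPRS1, IARS1 and MARS1 were lost in 12 of 20 alternatives each, among them the fits without medium replicate 1, 2 or 3. The count of 9 was 5 without medium replicate 2, where 0.268% of all genes were higher, and 0 when edgeR was fitted to the libraries of the 2 groups alone, where 0.0677% were. Against the low dose, the same 9 genes and NARS1 and TARS1 were higher at the high dose, where 1.44% of all genes tested were. NARS1 and TARS1 were lost in 12 of 20 alternatives each, among them every fit without a vehicle, low-dose or medium-dose library. In the fit to the low-dose and high-dose libraries alone, 4 passed (AARS1, CARS1, GARS1 and WARS1), where 0.394% of all genes were higher. The median cytosolic difference was 0.32 from the medium to the high dose, compared with 0.15 from vehicle to the medium dose.

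**Figure D4:**
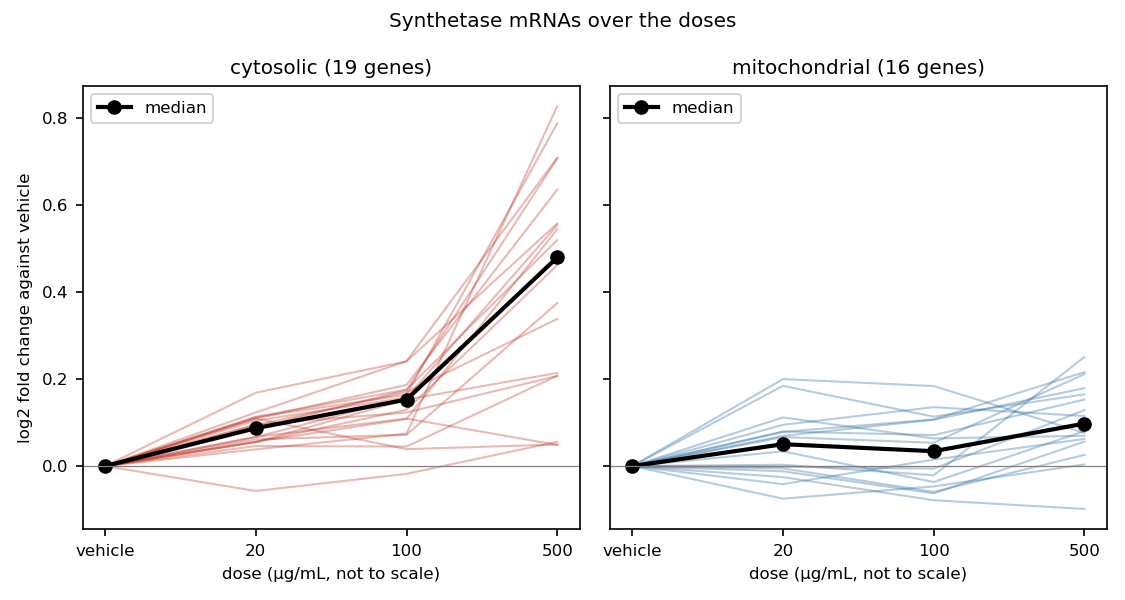
Log2 fold change against vehicle (y axis) over vehicle, 20, 100 and 500 µg/mL (x axis, not to scale) for the 19 cytosolic (left, red) and 16 mitochondrial (right, blue) synthetase genes, with a thin line per gene and the median in black. The cytosolic median is at 0.09, 0.15 and 0.48 at the low, medium and high dose, and the mitochondrial median at 0.05, 0.03 and 0.10.

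The promoters of the synthetase genes were searched for the amino acid response element TGATGNAA on both strands, the letters that ATF4 with its partners is known to bind, in the RefSeq windows from 250 bases before to 50 bases after each start (GRCh38.p14). No window was held for LARS1, VARS1, YARS1, AARS2 and VARS2. Of the 16 cytosolic genes with a window, 7 held the letters (43.8%), compared with 1 of 14 mitochondrial genes (7.14%), 2.83% of the 10790 tested genes with a window and 4.46% of 27305 RefSeq genes. All 7 were among the 11 genes with a window that rose at the high dose, and none was among the 5 that did not pass. The 30 bases around each match are given here on the strand of the gene, since these letters are shared by 7 of the 13 cytosolic genes that rose, with the match in capitals. In AARS1, CARS1, GARS1, IARS1, MARS1 and TARS1, the element lies on the opposite strand, so the capitals show its reverse complement.
AARS1 (chr16:70289675-70289704, minus strand): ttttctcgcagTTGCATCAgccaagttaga
CARS1 (chr11:3057407-3057436, minus strand): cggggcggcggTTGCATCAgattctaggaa
GARS1 (chr7:30594834-30594863, plus strand): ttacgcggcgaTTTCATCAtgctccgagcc
IARS1 (chr9:92293692-92293721, minus strand): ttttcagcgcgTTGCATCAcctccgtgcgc
MARS1 (chr12:57488053-57488082, plus strand): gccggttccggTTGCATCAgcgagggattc
NARS1 (chr18:57621804-57621833, minus strand): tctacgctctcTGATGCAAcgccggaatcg
TARS1 (chr5:33440956-33440985, plus strand): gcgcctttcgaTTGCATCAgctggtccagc
YARS2 (chr12:32756076-32756105, minus strand): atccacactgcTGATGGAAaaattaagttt
In AARS1, CARS1, IARS1, MARS1, NARS1 and TARS1, the matched letters were TGATGCAA, in GARS1 TGATGAAA and in YARS2, the mitochondrial tyrosine enzyme, TGATGGAA. The match lay within 33 bases of the RefSeq start of its window in CARS1, GARS1, IARS1, MARS1, NARS1 and TARS1. In AARS1 it lay 187 bases before that start. These starts differ from the GENCODE starts given above, and the matches of these 7 genes lie within their GENCODE spans. CARS1, GARS1 and TARS1 held the letters in 1 of 2 windows each. SARS1, WARS1, EPRS1 and FARSB rose at the high dose without these letters in their windows, and YARS2 held them with a log2 fold change of 0.03 ± 0.11 SE. A match shows that the letters are present and not that a factor was bound.

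The 3 scaffold genes of the multi-synthetase complex, AIMP1, AIMP2 and EEF1E1, did not pass at any dose. At the high dose they had log2 fold changes of 0.16 ± 0.16 SE, 0.06 ± 0.11 SE and 0.23 ± 0.23 SE, and their high-dose libraries overlapped with vehicle. EEF1E1 was at 45.5, 95.1 and 44.5 CPM at the high dose against 60.3, 48.3 and 48.0 CPM with vehicle, so that only replicate 2 stood apart. Without it, the estimates of AIMP1, AIMP2 and EEF1E1 were −0.11, −0.06 and −0.21, and again none passed. None of 5 cytosolic elongation factor genes and none of 6 genes of mitochondrial formylation, amidotransfer and elongation passed. Without high-dose replicate 2, the elongation factor EEF1A2 did (0.47, adjusted p = 0.00442), where 9.83% of all genes tested passed in the upward direction. Of 7 genes for tRNA proofreading, export, end processing and selenocysteine, 1 passed at the high dose. This was XPOT, the exporter of tRNA from the nucleus, with 196, 208 and 225 CPM with vehicle, 226, 224 and 232 CPM at the low dose, 241, 247 and 239.9 CPM at the medium dose and 320.1, 304 and 327 CPM at the high dose (log2 fold change 0.59 ± 0.07 SE, adjusted p = 0.000288). Its libraries were above vehicle without overlap at the medium and high doses, and its high-dose estimate without replicate 2 was 0.62.

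All 6 listed stress genes rose at the high dose, where 2.82% of all genes tested passed in the upward direction. They were listed with earlier results of these data known, and the kind of stress was not tested. None of the 6 passed at the medium or low dose. ATF4 itself was at 271, 243 and 237 CPM with vehicle and 358, 421 and 349 CPM at the high dose (log2 fold change 0.59 ± 0.08 SE, adjusted p = 0.00146). ASNS, the asparagine synthetase that makes the amino acid NARS1 charges, was at 55.5, 56.1 and 56.5 CPM with vehicle and 204, 299.7 and 205 CPM at the high dose (log2 fold change 2.08 ± 0.13 SE, adjusted p = 1.94e-06). CHAC1 had the highest estimate (2.97 ± 0.13 SE), and lower ones were found for SESN2 (1.11 ± 0.13 SE), TRIB3 (1.07 ± 0.07 SE) and DDIT3 (0.75 ± 0.13 SE). The estimates of ASNS, CHAC1, SESN2 and TRIB3 were above those of all 35 synthetase genes, whereas ATF4 and DDIT3 lay in the range of the 13 that rose. All 6 also passed without high-dose replicate 2, with estimates from 0.50 (ATF4) to 3.07 (CHAC1).

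Several of the genes share exon bases with a neighbour, and since the strand setting of the counting was not stated, such values are uncertain. On the opposite strand, MARS1 overlaps DDIT3, whose counts were 3.5% of those of MARS1, YARS1 overlaps S100PBP (9.57%), AARS1 overlaps DDX19B (23.5%), GARS1 overlaps GARS1-DT (9.35%) and WARS1 overlaps WDR25 (3.34%). The bases shared with these neighbours were 0.420% (AARS1) to 5.05% (MARS1) of the exon bases of these 5 genes. MARS1 shares a further 7.38% with ARHGAP9 and WARS1 6.06% with an unnamed gene (ENSG00000258666), both of which had counts of at most 0.108% of theirs. MARS1 and DDIT3 share 355 exon bases, where the canonical DDIT3 transcript has 903 bases, so the values of DDIT3 are uncertain as well. HARS1 and HARS2 start head to head on chromosome 5 and share 108 exon bases, and HARS1 also shares 1090 bases with WDR55, whose counts were 96.5% of its own. EARS2 and HARS2 share bases with more abundant genes on the same strand, GGA2 (127% of the counts of EARS2) and ZMAT2 (260% of those of HARS2).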

How the data were processed

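RNA of HT29 cells treated for 24 h was sequenced in 12 libraries (4 groups of 3) from a directional library kit. By the submitters' processing notes, reads went through Trim Galore 0.6.5, STAR 2.7.3a (hg38, GRCh38) and RSEM 1.3.3. The paper's methods name other versions of Trim Galore and STAR, and the strand setting of RSEM is not given in the sources used here. The authors deposited the expected counts of RSEM without normalization, and these were rounded to whole numbers. Totals were 15941255 to 33866644 per library, and fold changes are least precise for genes with few counts.

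Genes were filtered with filterByExpr, scaled by the TMM method and fitted with edgeR 4.0.16 (R 4.3.3; robust quasi-likelihood, 4 groups as the only terms, 12 libraries). Adjusted p-values were made by the Benjamini–Hochberg method over 15374 genes. A gene passed with an adjusted p under 0.05, and DEGs also had a fold change over 1.5. Standard errors were obtained from the F statistic, and intervals cover 95%. CPM used the TMM factors. The fit was also run on simulated counts with known changes and the same spread for all genes. These held no outlying library and no bias by length or GC content, so the run does not show how the fit handles them. Alternatives used DESeq2 1.42.0, other filters and scaling, a replicate block and each library left out, plus an offset for transcript length and GC content and values of pairs and lists without high-dose replicate 2, both chosen after seeing the data.

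The members, gene lists and tests were chosen with earlier results of these data known. Synthetase genes that passed at any dose were named with the values of every library, the others by ranges, counts and their place in a pair, and the scaffolds and the genes of other lists that passed were named too. Further genes were named after their values were seen, where a count of 5 or fewer or the highest or lowest value was described. The lists covered 3 scaffold genes, 5 cytosolic elongation factors, 6 genes of mitochondrial formylation, amidotransfer and elongation, 7 genes of tRNA proofreading, export, end processing and selenocysteine, 6 stress genes, 8 epithelial markers (0 passed at the high dose) and 4 markers of other cell types (2 tested, 0 passed). Gene positions came from GENCODE release 44 and promoter windows from RefSeq (GRCh38.p14).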

Additional observations from a re-analysis of the deposited data

How the results depend on the processing

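No gene that passed turned its direction, and the cause of the changes below was not tested. Of values that were not called, the mitochondrial median at the low dose went from 0.05 to −0.00083 without low-dose replicate 3 (up to 0.07 without other libraries), and without high-dose replicate 2 the high-dose estimates went from 0.21 to −0.0036 for RARS1, from 0.03 to −0.09 for YARS2, from 0.13 to −0.05 for HARS2 and from 0.08 to −0.0065 for CARS2. At the high dose, 13 cytosolic genes passed. The count was 6 with edgeR fitted to vehicle and high dose alone, and 5 with a fold change over 1.5. Over all alternatives it was 5 to 15. With DESeq2's Wald test on vehicle and high dose alone, only FARSB of the 13 did not pass (adjusted p = 0.0503). With each library left out, the cytosolic count was 10 to 13, and the mitochondrial count was 0 to 3, where the 3 came without high-dose replicate 2. With each library left out, the cytosolic median was 0.37 to 0.52 and the mitochondrial one 0.05 to 0.14, both lowest without high-dose replicate 2. AARS1, CARS1, GARS1, MARS1, WARS1 and YARS1 passed in 20 of 20 alternatives, EPRS1, IARS1, LARS1 and SARS1 in 19, TARS1 in 17, and FARSB and NARS1 in 16.

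At the medium dose, where 0 cytosolic genes passed, the count was 4 with DESeq2 on all libraries, 4 with DESeq2 on the 2 groups, 2 with edgeR on the 2 groups and 3 with the offset for length and GC content, and 0 to 3 with each library left out, where the 3 came without high-dose replicate 2. The mitochondrial median at this dose was 0.0423 and 0.0427 in the DESeq2 fits, 0.0496 with no filter on low counts and 0.0274 to 0.0484 with each library left out. From medium to high dose, the count of 9 became 0 with edgeR on the 2 groups, 2 with a fold change over 1.5 and 5 to 10 with each library left out. Over all alternatives it was 0 to 12. From low to high dose, the count of 11 became 4 with edgeR on the 2 groups, 4 with a fold change over 1.5 and 9 to 12 with each library left out. Over all alternatives it was 4 to 13. The mitochondrial median from low to high dose was 0.0083 to 0.11, lowest without high-dose replicate 2. At the low dose, no synthetase gene passed in any alternative, and the cytosolic median was 0.05 to 0.12 with each library left out.

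With the replicate number as a block, 13 cytosolic genes passed at the high dose, 9 against the low dose and 6 against the medium dose, and no mitochondrial gene did. Samples with the same number did not deviate together, with correlations from −0.495 to 0.372, over 0.1 in 5 of 18 pairs, and 4 of 12 libraries correlated best with their own number. The replicate block therefore rests on a shared number only. The lowest counts were those of PARS2 and FARS2, with at most 371 and 336 in a library.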
